A study of Mus musculus with 15 samples.

Results

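The 10 genes described here carry or receive the TGF-beta and BMP signals that are known for holding disseminated breast cancer cells in dormancy or releasing them from it: the ligands Tgfb1, Tgfb2, Tgfb3, Bmp2 and Bmp4, the receptors Tgfbr1, Tgfbr2, Tgfbr3 and Bmpr2, and the secreted BMP antagonist Grem1. They were listed by name, with earlier results of these data known. Each was read from the transcript cluster (the set of array probes summarised as 1 value) that the platform annotation pairs with that gene alone, taking the cluster with the highest mean where a gene had several, and all 10 of 10 members were measured among the 22180 genes so named. Each member had exactly 1 such cluster, and a further Bmpr2 cluster that names several genes was not used.

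RNA was measured in 15 laser-captured tumor nodules from fixed, paraffin-embedded lungs of female BALB/c mice. The mice had received D2.A1 or D2.OR cells, both of the D2.HAN series of murine mammary tumor lines, through the tail vein. D2.A1 cells form large lung metastases in this strain, whereas D2.OR cells mostly stay dormant there. Cells were either unprimed, grown on tissue culture plastic (2D), or primed, grown for some days on Cultrex reconstituted basement membrane (3D), before inoculation. The 6 groups were unprimed D2.A1 spindle nodules (n = 3), unprimed D2.A1 epithelial nodules (n = 3), primed D2.A1 spindle nodules (n = 2), primed D2.A1 epithelial nodules (n = 2), unprimed D2.OR nodules (n = 2) and primed D2.OR nodules (n = 3), the D2.OR nodules all being labelled spindle. No gene was altered in any group by the labels, every group went through the same capture, and the labels give no age of the mice. Nodules were picked by their morphology on stained sections. The study's legend gives 3 mice a group while unprimed D2.A1 nodules number 6 and primed ones 4, so some nodules share a mouse that no label names. The p-values below treat nodules as independent. They are too small where nodules on the same side of a comparison share a mouse. Where nodules on opposite sides do, as may be so between morphologies, they can be too large.

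TGF-beta ligands are secreted in a latent form, held by latent TGF-beta binding proteins in the matrix, and act once released. The free ligand is bound by Tgfbr2, which recruits and phosphorylates Tgfbr1, the kinase that passes the signal to Smad proteins; Tgfbr3 (betaglycan) is a coreceptor that presents ligand, Tgfb2 above all, to the other receptors. BMP ligands signal in a like manner through Bmpr2 and its partner receptors, and Grem1 traps Bmp2 and Bmp4 outside the cell. In lung, all of these are made and read by stromal, endothelial and immune cells as well as by tumor cells.

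All values are on the log2 scale of the authors' Robust Multi-array Average (RMA), on which the deposited values ran from 0.627 to 13.8 and the mean of the median gene was 1.94. The values of different genes rest on different probes and were not set against each other. No detection calls were used, so the weak members, Bmp2, Bmp4, Grem1 and Tgfbr1, whose means over the 15 arrays were 1.88, 1.82, 1.94 and 2.09, lie in the range where differences are least certain. In 44.6% of genes, and in Tgfb2, Tgfb3, Tgfbr3, Bmp2 and Grem1 among the members, at least 2 arrays held exactly the same value.

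The nodules were not tumor cells alone. Of 9 measured markers of the tumor epithelium, 3 (Epcam, Cldn7 and Krt14) lay below the median gene, and the mean of 9 epithelial markers ran from 2.24 to 3.25 over both lines. The mean levels of B cell, T cell and fat cell markers were higher in every D2.OR nodule than in any D2.A1 nodule: the mean of 9 B and plasma cell markers was 2.53 to 4.81 against 1.85 to 2.08, of 8 T cell markers 2.27 to 4.72 against 1.82 to 2.13, and of 10 fat cell markers 2.45 to 6.33 against 1.72 to 1.94. The mean of 10 smooth muscle and pericyte markers, 2.61 to 3.00 against 2.34 to 2.51, did not overlap either. Primed D2.OR nodule 2 alone was high in heart and skeletal muscle markers, with a mean of 4.46 against 1.96 to 2.78 in the other 14 nodules. In such bulk samples fewer cells of a type and less RNA per cell cannot be told apart.

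Promoter windows are shown for Tgfb1, a ligand with widely spread values among spindle nodules, for Tgfb2, the ligand that was low in both unprimed D2.OR nodules, and for Tgfbr2, one of the receptors that differed between the lines. RefSeq windows of 250 bases ending just before the start site were at hand for 7 of the 10 members, Tgfb3 and Tgfbr3 not among them, in build GRCm38.p6. Capitals mark CAGAC or its reverse complement GTCTG, the core that Smad proteins bind, and TATAAA or its reverse complement TTTATA, the TATA box; neither motif overlaps the other. The windows are Tgfb1 (chr7:25686752-25687001, plus strand), Tgfb2 (chr1:186705990-186706239, minus strand) and Tgfbr2 (chr9:116175364-116175613, minus strand), each written 5′ to 3′ along the gene.
Tgfb1: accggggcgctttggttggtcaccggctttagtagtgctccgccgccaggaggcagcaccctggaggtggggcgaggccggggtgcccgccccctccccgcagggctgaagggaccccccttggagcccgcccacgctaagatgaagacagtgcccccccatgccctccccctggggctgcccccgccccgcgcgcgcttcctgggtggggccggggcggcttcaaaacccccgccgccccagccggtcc
Tgfb2: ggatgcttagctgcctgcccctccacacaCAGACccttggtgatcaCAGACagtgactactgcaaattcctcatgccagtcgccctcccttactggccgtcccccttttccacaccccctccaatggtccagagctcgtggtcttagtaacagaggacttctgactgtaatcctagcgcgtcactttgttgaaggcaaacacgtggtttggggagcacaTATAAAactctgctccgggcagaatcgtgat
Tgfbr2: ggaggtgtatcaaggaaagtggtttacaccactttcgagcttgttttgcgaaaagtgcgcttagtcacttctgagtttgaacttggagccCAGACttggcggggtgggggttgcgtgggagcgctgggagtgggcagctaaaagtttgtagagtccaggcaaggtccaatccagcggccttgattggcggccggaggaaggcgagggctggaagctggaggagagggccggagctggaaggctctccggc
The Tgfb1 window was 75.2% G and C, held neither marked motif and had 5 copies of GGGCGG or its reverse complement CCGCCC, the GC box. The Tgfb2 window had 2 Smad cores and 1 TATA box at 53.6% G and C, and the Tgfbr2 window had 1 Smad core at 58.4%. Such matches are common: over all 32851 windows of this length, 42.2% held a Smad core, 32.7% a GC box and 12.4% a TATA box, and the median G and C content was 52.4%.

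**Figure D1:**
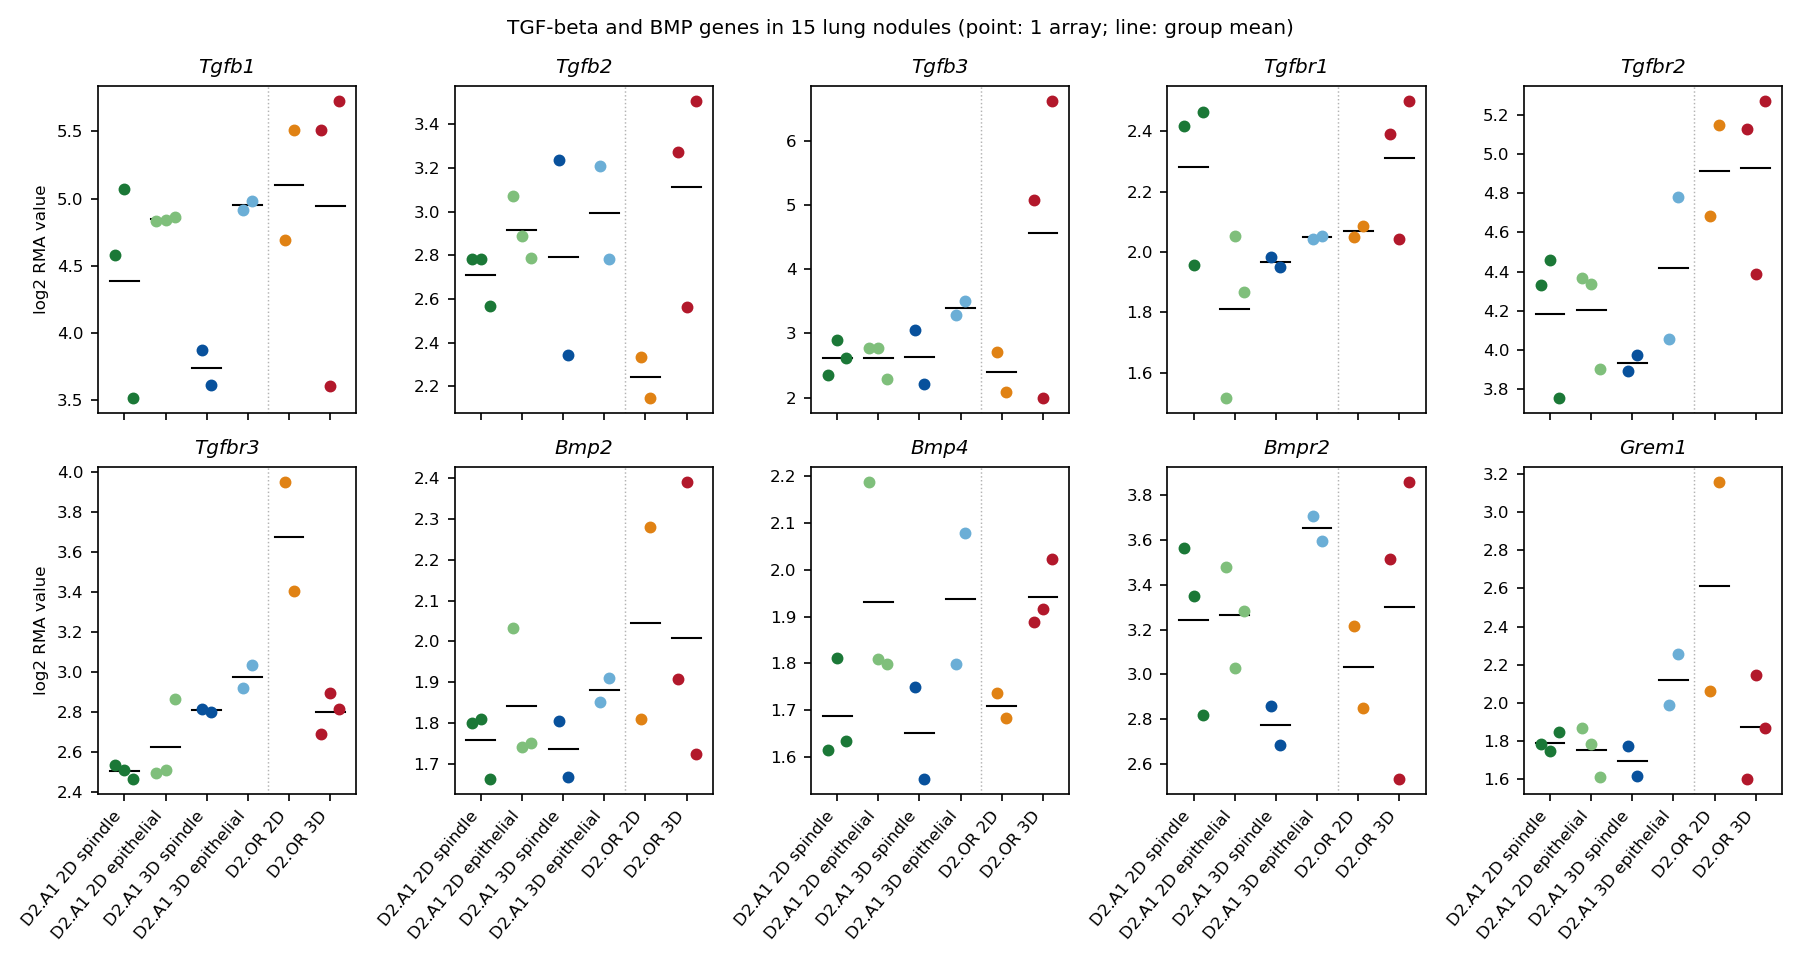
Log2 RMA value (vertical axis, its range set for each gene) of the 10 TGF-beta and BMP genes in each nodule, by group, with the dotted line between D2.A1 and D2.OR; points are single arrays and bars group means. Tgfbr3 was 3.40 and 3.95 in the unprimed D2.OR nodules and at most 3.04 elsewhere, and Tgfb3 was 5.08 and 6.62 in primed D2.OR nodules 1 and 3 and at most 3.51 in the others.

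Tgfbr3 was the member whose differences were clearest. Its values were 2.54, 2.51 and 2.47 in the unprimed D2.A1 spindle nodules, 2.50, 2.51 and 2.87 in the unprimed epithelial ones, 2.82 and 2.80 in the primed spindle ones, and 2.92 and 3.04 in the primed epithelial ones. In D2.OR it was 3.95 and 3.40 without priming and 2.69, 2.90 and 2.82 with priming. Both unprimed D2.OR nodules thus stood above every other nodule, while the primed D2.OR nodules lay among the D2.A1 nodules. The group means in rising order were 2.50 ± 0.04 (SD, n = 3) for unprimed D2.A1 spindle, 2.62 ± 0.21 (n = 3) for unprimed D2.A1 epithelial, 2.80 ± 0.10 (n = 3) for primed D2.OR, 2.81 ± 0.01 (n = 2) for primed D2.A1 spindle, 2.98 ± 0.08 (n = 2) for primed D2.A1 epithelial and 3.68 ± 0.39 (n = 2) for unprimed D2.OR. The nearest pair to a difference among neighbours in this order was the last, at 0.70 with an adjusted p of 0.063.

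Between the unprimed nodules, D2.A1 was lower than D2.OR in Tgfbr3 by 1.11 on the log2 scale (difference -1.11, SE 0.14, 95% interval -1.42 to -0.81, adjusted p = 0.00091 by limma with Benjamini-Hochberg adjustment over all genes), which is a 2.16-fold difference. It was the 1 member of 10 called in that comparison, in which 4.20% of all genes were called and 3.20% were called lower. The call held with each array outside unprimed D2.OR left out in turn. Leaving out either unprimed D2.OR nodule gave differences of -1.39 and -0.84, the lone array being assumed to vary like the other groups. A test without moderated variances on the groups compared did not reach the threshold (adjusted p = 0.11, and 0.00085 to 0.012 under the other settings). Between the primed nodules the Tgfbr3 difference was 0.09 (95% interval -0.20 to 0.38, adjusted p = 0.88).

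Priming went with a lower Tgfbr3 in D2.OR: the primed nodules were lower by 0.87 (difference -0.87, SE 0.16, 95% interval -1.22 to -0.53, adjusted p = 0.047), again as 1 of 10 members, where 0.275% of all genes were called and 0.203% lower. In D2.A1 the primed nodules differed from the unprimed ones by 0.33 (SE 0.11, 95% interval 0.09 to 0.57, adjusted p = 0.79), which did not pass, and 0.00451% of all genes, a single gene, were called there. The difference between these effects of priming was 1.20 (SE 0.19, 95% interval 0.78 to 1.62, adjusted p = 0.045), with 0.0947% of all genes called. Both of these calls are near the threshold. With 1 array left out, that of priming in D2.OR remained only without unprimed D2.OR nodule 3 or primed D2.OR nodule 2 (differences -1.15 to -0.60 and adjusted p 0.0016 to 0.15 over the 15), and that of the difference between the lines only without unprimed D2.OR nodule 2, unprimed D2.OR nodule 3, primed D2.OR nodule 2 or unprimed D2.A1 epithelial nodule 3 (0.93 to 1.48, adjusted p 0.00097 to 0.15). Under the other settings the adjusted p ran from 0.019 to 0.94 for priming in D2.OR, the highest coming from the D2.OR arrays fitted alone, and from 0.014 to 0.14 for the difference.

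Like Tgfbr3, the mean of the endothelial markers was highest in the unprimed D2.OR nodules. All 15 of the 15 listed were measured, and their mean was 2.78 and 3.13 in the unprimed D2.OR nodules, 2.59 to 2.74 in the primed D2.OR nodules, 2.18 to 2.54 in the unprimed D2.A1 nodules and 2.23 to 2.68 in the primed D2.A1 nodules. Of these markers 5 were lower in D2.A1 than in D2.OR and none higher. With priming in D2.OR 2 were lower, namely Pecam1 and Egfl7, and 13 were not called. The median difference of the 15 markers was -0.23 there, beside 0.01 over all genes. Among those not called, Cdh5 was 5.84 and 5.13 in unprimed and 5.25, 4.44 and 5.34 in primed D2.OR nodules. In primed D2.A1 epithelial nodules Cdh5 was 5.46 and 5.66. Ramp2, also not called, was 2.71 and 2.67 in unprimed and 2.93, 2.74 and 2.92 in primed D2.OR nodules. It alone was called between the primed nodules (-0.52, adjusted p = 0.030 by limma). Within D2.A1, mean Tgfbr3 was lowest in unprimed spindle nodules, at 2.50, and highest in primed epithelial ones, at 2.98. The marker means there were 2.18 to 2.34 and 2.68, the same order. Between these groups, mean Tgfbr3 was 2.81 in primed spindle and 2.62 in unprimed epithelial nodules. The marker means of that pair were 2.23 to 2.28 and 2.46 to 2.54, the opposite order. Egfl7 was also the gene whose values followed Tgfbr3 most closely over the 15 arrays (Pearson r = 0.92), ahead of Rxrb and Acss1 (both r = 0.91), as a description of arrays that share lines and groups. Egfl7 was, like Tgfbr3, called by limma between the lines (-0.64) and between the unprimed nodules (-1.17). It was also called with priming in D2.OR (-0.88, adjusted p = 0.022 by limma) and for the difference of the priming effect (1.05, adjusted p = 0.034). Like calls follow from values that run so close on these same arrays, and they are no separate evidence.

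Rgs5, a pericyte gene, was also highest in the unprimed D2.OR nodules, though its primed D2.OR values lay above all of D2.A1. It was 6.13 and 5.12 in the unprimed D2.OR nodules, 3.42, 3.01 and 3.00 in the primed ones and 1.92 to 2.78 in D2.A1 nodules. It differed by -2.09 between the lines (adjusted p = 1.5e-05), by -2.48 with priming in D2.OR (adjusted p = 0.0022) and by 2.95 for the difference of the priming effect (adjusted p = 0.0044). Of the 10 smooth muscle and pericyte markers 2 were lower in D2.A1 and none higher, and with priming in D2.OR 1 was lower and 1 higher; their mean was 3.00 and 2.67 in the unprimed D2.OR nodules and 2.61, 2.99 and 2.87 in the primed ones. Other cell type markers called for the difference were Inmt of fibroblasts (-1.91) and Sftpb, Sftpc and Aqp5 of the alveolar epithelium (-5.72, -8.09 and -1.93). The part of endothelial cells and pericytes in the Tgfbr3 result was not tested.

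Tgfbr2, the receptor that binds free ligand, was also lower in D2.A1 than in D2.OR nodules, with a less stable call. It measured 4.33, 4.46 and 3.75 in unprimed D2.A1 spindle nodules, 4.37, 4.34 and 3.90 in unprimed epithelial ones, 3.89 and 3.97 in primed spindle ones and 4.05 and 4.78 in primed epithelial ones. D2.OR nodules measured 4.69 and 5.15 unprimed and 5.13, 4.39 and 5.27 primed. The lines overlapped, since 1 D2.A1 nodule reached 4.78 and 1 D2.OR nodule lay at 4.39. Over all groups D2.A1 was lower by 0.74 (difference -0.74, SE 0.19, 95% interval -1.14 to -0.34, adjusted p = 0.039), a 1.67-fold difference, and Tgfbr3 was lower by 0.51 in the same comparison (difference -0.51, SE 0.10, 95% interval -0.72 to -0.30, adjusted p = 0.0086). These were the 2 members called of 10, where 5.19% of all genes were called and 3.67% lower (337 genes higher and 815 lower, but 728 and 720 after quantile normalization). The values of D2.A1 and D2.OR overlapped in all 10 members, against 1.69% of all genes in which they did not.

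The Tgfbr2 call between the lines was lost when any of 11 of the 15 arrays was left out (differences -0.87 to -0.62, adjusted p 0.0077 to 0.16), and it was kept only without unprimed D2.A1 spindle nodule 2, primed D2.A1 epithelial nodule 2, unprimed D2.OR nodule 2 or primed D2.OR nodule 2. That of Tgfbr3 was kept in all 15 (adjusted p 0.00098 to 0.030) but not after quantile normalization (difference -0.38, adjusted p = 0.080, and 0.0074 to 0.030 under the other settings). Restricting D2.A1 to its spindle nodules, so that both lines had 1 morphology, gave differences of -0.86 for Tgfbr2 (SE 0.21, adjusted p = 0.043) and -0.58 for Tgfbr3 (SE 0.11, adjusted p = 0.012), where 4.21% of all genes were called and 3.12% lower; the first was kept in 5 and the second in all 15 fits with 1 array left out, and Tgfbr3 was again not called after quantile normalization (adjusted p = 0.12). Priming left Tgfbr2 at differences of 0.01 in D2.OR (95% interval -0.65 to 0.67) and -0.02 in D2.A1 (95% interval -0.48 to 0.45). The genes nearest to Tgfbr2 over the 15 arrays were Cd24a, Herpud1 and Irf2bpl (each r = 0.93).

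Tgfbr1, the partner kinase, varied little, with group means from 1.81 ± 0.27 (n = 3) in unprimed D2.A1 epithelial to 2.31 ± 0.24 (n = 3) in primed D2.OR nodules. Its difference between the lines was -0.16 (95% interval -0.41 to 0.09, adjusted p = 0.52). Bmpr2, the BMP type II receptor, ran from 2.54 in primed D2.OR nodule 2 to 3.86 in primed D2.OR nodule 3, so that 1 group spanned the whole range of the 15 nodules. Its group means went from 2.77 ± 0.12 (n = 2) in primed D2.A1 spindle to 3.65 ± 0.08 (n = 2) in primed D2.A1 epithelial nodules, and the lines differed by 0.06 (95% interval -0.36 to 0.49, adjusted p = 0.92). 

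**Figure D2:**
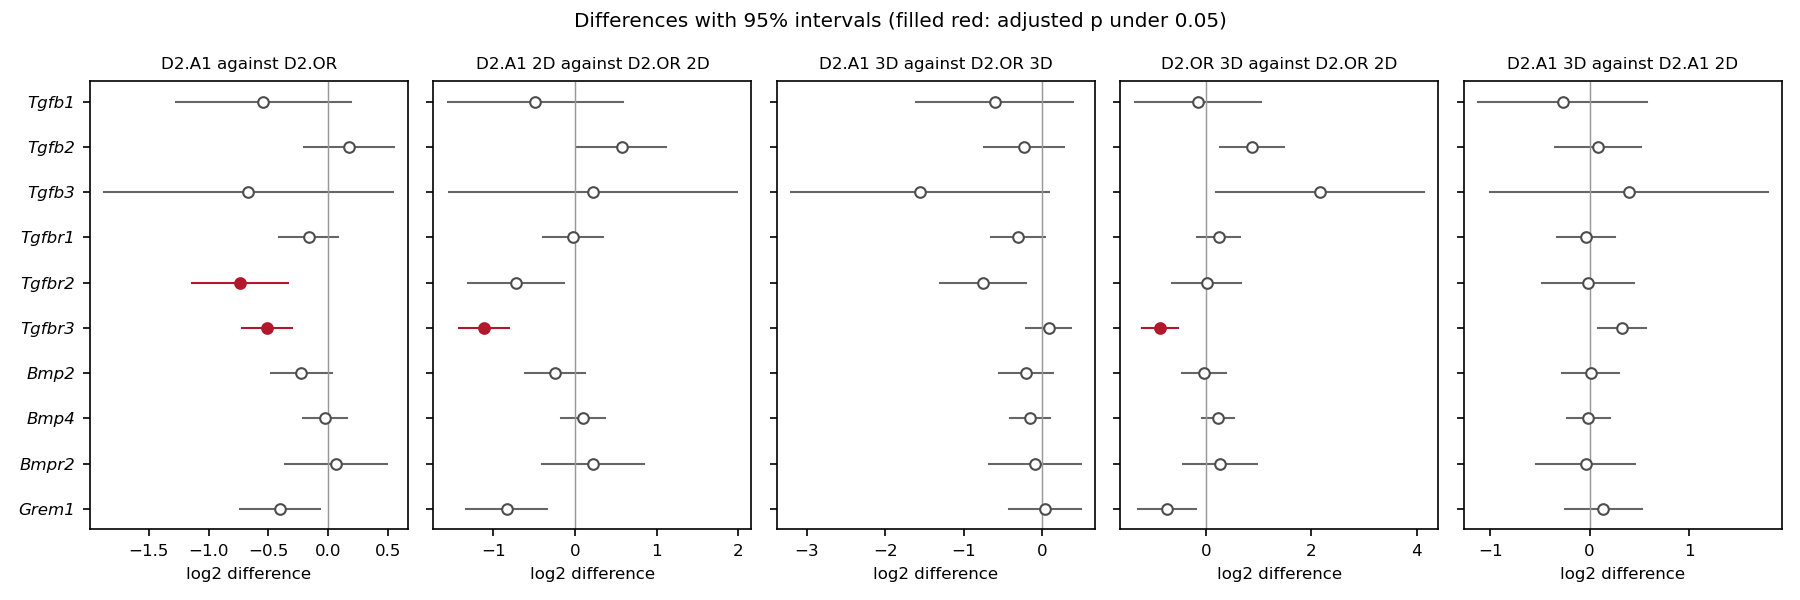
Log2 difference (horizontal axis) of each of the 10 genes in 5 comparisons, with 95% intervals from limma; filled red points have an adjusted p under 0.05, open points do not. Tgfbr2 and Tgfbr3 were lower in D2.A1 over all groups, Tgfbr3 in unprimed D2.A1 and in primed D2.OR, and the intervals of Tgfb3 were the widest.

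The ligand Tgfb3 was high in only 2 of the 15 nodules. It was 5.08 in primed D2.OR nodule 1 and 6.62 in primed D2.OR nodule 3, while primed D2.OR nodule 2 had 2.00, the lowest value of all. Unprimed D2.OR nodules had 2.71 and 2.09. D2.A1 nodules ranged from 2.21 to 3.51, with the primed epithelial pair highest at 3.28 and 3.51. With a mean of 4.57 ± 2.35 (n = 3) the primed D2.OR group had the widest spread of any member and group. Its difference from the unprimed D2.OR nodules was 2.16 (SE 0.91, 95% interval 0.19 to 4.14, adjusted p = 0.47), and the primed D2.A1 nodules differed from it by -1.55 (SE 0.76, 95% interval -3.20 to 0.10, adjusted p = 0.52). Neither passed the threshold. No member was called between the primed nodules, where 0.446% of all genes were called and limma gave 1 member at an unadjusted p under 0.05; weighting the arrays called 2 members, and cyclic loess and quantile normalization 1 each.

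Single primed D2.OR nodules moved these values in both directions. Without primed D2.OR nodule 2, Tgfb3 differed by 3.45 between primed and unprimed D2.OR nodules (adjusted p = 0.0014), by -2.84 between primed D2.A1 and primed D2.OR nodules (adjusted p = 0.0019) and by -1.31 between the lines (adjusted p = 0.0091). Tgfb1 then differed between the lines by -0.88 (adjusted p = 0.039), and Tgfb2 between primed and unprimed D2.OR nodules by 1.15 (adjusted p = 0.034). Without primed D2.OR nodule 3, which had the highest Tgfb3, the Tgfb3 differences shrank to 1.14 with priming (adjusted p = 0.71), -0.52 between the primed nodules (adjusted p = 0.88) and -0.15 between the lines (adjusted p = 0.91). Primed D2.OR nodule 2 is the nodule with the muscle markers, and its values over all clusters had the narrowest spread of the 15 arrays (SD 1.24 against up to 1.37); weights estimated from the arrays gave it the lowest, 0.325.

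The mean of the fibroblast markers was highest in the nodules with high Tgfb3. All 12 listed were measured, and their mean was 5.01, 3.68 and 5.53 in primed D2.OR nodules 1, 2 and 3, 3.39 and 3.31 in the unprimed D2.OR nodules and 3.12 to 3.89 in D2.A1. Single markers differed: in primed D2.OR nodules 1, 2 and 3 Dcn was 4.85, 6.20 and 5.53, and Dpt 3.42, 3.57 and 3.26. Npnt was 2.19, 2.07 and 2.52 there. Alveolar type II cell markers also had means of 4.99 and 5.43 in primed D2.OR nodules 1 and 3, against 2.50 to 3.91 in the other nodules. The genes whose values ran closest to Tgfb3 over the 15 arrays were Mthfd2l (r = 0.97), Foxr2 (r = 0.96) and Mmp2 (r = 0.95), the matrix protease Mmp2 being 6.08 and 7.98 in the nodules with high Tgfb3 and 2.55 to 3.33 in the others. These correlations rest on the same pair of nodules. The part of fibroblasts and alveolar cells in the Tgfb3 values was not tested.

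Tgfb1, the ligand best known in breast cancer, was even among epithelial nodules and varied widely among spindle ones. It was 4.84, 4.84 and 4.86 in unprimed D2.A1 epithelial nodules and 4.92 and 4.98 in primed epithelial ones. Spindle D2.A1 nodules had 4.58, 5.07 and 3.52 unprimed and 3.87 and 3.61 primed. D2.OR nodules had 4.69 and 5.51 unprimed and 5.51, 3.60 and 5.73 primed. The 4 nodules below 4 were thus all spindle, 3 of D2.A1 and 1 of D2.OR, and 3 of the 4 groups of spindle nodules included at least 1 of them. Within D2.A1 the spindle nodules differed from the epithelial ones by -0.83 (SE 0.39, 95% interval -1.68 to 0.02, adjusted p = 0.64), which did not pass.

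Array spread moved with Tgfb1. Of the 5 arrays with the narrowest spread of values over all clusters, 4 were among the 5 lowest for Tgfb1, as also for Tgfbr2 and Bmpr2, while 1 was among the 5 lowest for Tgfbr3. Tgfb1 was 3.52 to 4.86 in those 5 arrays and 4.58 to 5.73 in the other 10. The part of array spread in the Tgfb1, Tgfbr2 and Bmpr2 values was not tested. Tgfb1 values lay nearest to those of Lgals9, Srsf11 (both r = 0.96) and Gabarap (r = 0.95).

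**Figure D3:**
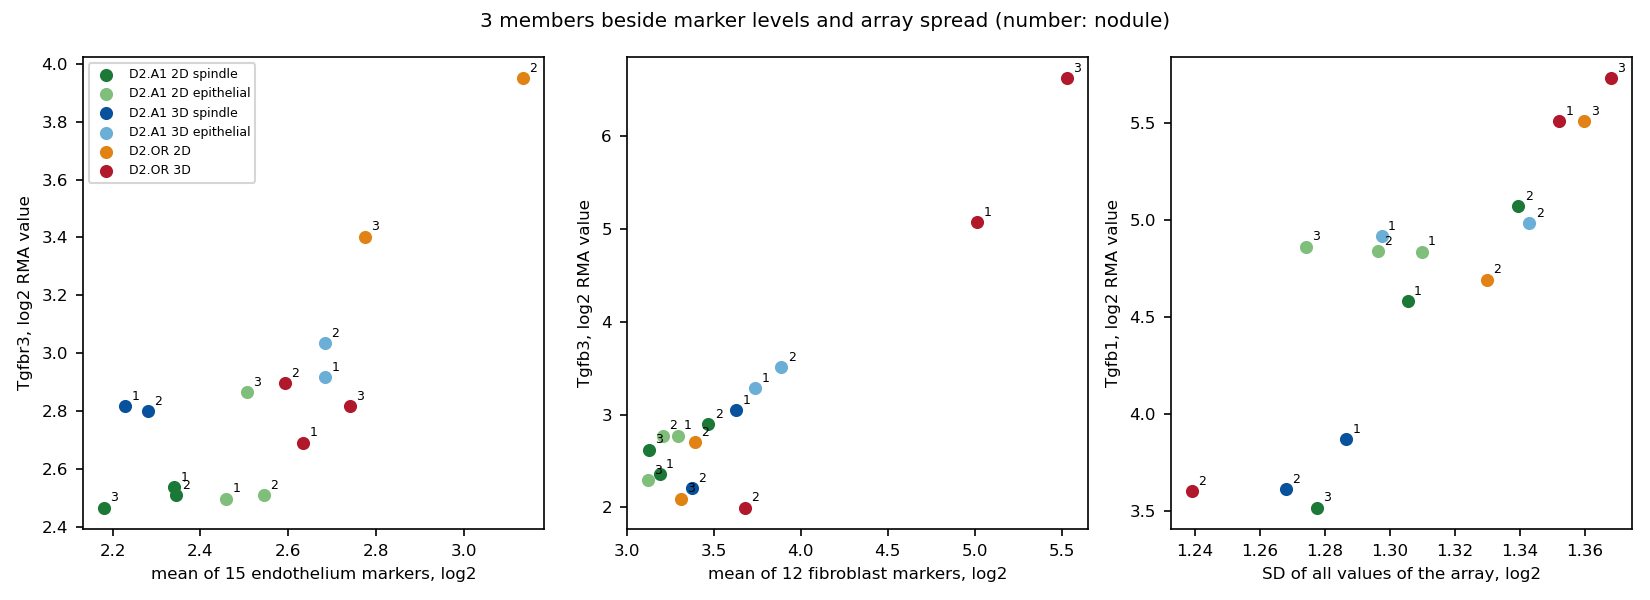
Tgfbr3 against the mean of 15 endothelium markers (left), Tgfb3 against the mean of 12 fibroblast markers (middle) and Tgfb1 against the SD of all values of the array (right), all in log2 units, 1 point per nodule with its number, colored by group. The unprimed D2.OR nodules have the highest Tgfbr3 and endothelial means (2.78 and 3.13), primed D2.OR nodules 1 and 3 have the highest Tgfb3 and fibroblast means (5.01 and 5.53), and the 4 nodules with Tgfb1 below 4 have an SD of at most 1.29.

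Tgfb2 was lowest in the unprimed D2.OR nodules, at 2.33 and 2.15, and 3.27, 2.57 and 3.51 in the primed ones. D2.A1 nodules ranged from 2.34 to 3.24. The unprimed D2.OR values lay below those of all other nodules, the nearest being primed D2.A1 spindle nodule 2 at 2.34. The difference between primed and unprimed D2.OR was 0.87 (SE 0.28, 95% interval 0.26 to 1.49, adjusted p = 0.31), and unprimed D2.A1 differed from unprimed D2.OR nodules by 0.57 (95% interval 0.03 to 1.12, adjusted p = 0.29); neither passed. The unprimed D2.OR nodules had the lowest Tgfb2 and the highest Tgfbr3 values of the 15, a matter of rank in Tgfb2, whose differences were not called.

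The BMP ligands were weak and even. Bmp2 ran from 1.66 to 2.39 and Bmp4 from 1.55 to 2.19 over all nodules. The lines differed by -0.22 in Bmp2 (95% interval -0.47 to 0.03, adjusted p = 0.35) and by -0.02 in Bmp4 (95% interval -0.21 to 0.16, adjusted p = 0.93). Bmp4 had the lowest unadjusted p of the members between D2.A1 spindle and epithelial nodules, with a difference of -0.27 (95% interval -0.48 to -0.05, adjusted p = 0.52). No member and no gene at all was called between the morphologies (0% of all genes by limma, with 1732 genes, 7.81%, and 1 member at an unadjusted p under 0.05). The test without moderated variances called none either, and other settings called up to 18 genes but no member.

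Grem1, which blocks BMP ligands, was 2.06 and 3.16 in the unprimed D2.OR nodules. It was 1.60, 2.15 and 1.87 in the primed D2.OR nodules and 1.61 to 2.25 in the D2.A1 nodules. Only unprimed D2.OR nodule 3 stood apart. The unprimed D2.A1 nodules differed from unprimed D2.OR by -0.84 (SE 0.23, 95% interval -1.33 to -0.35, adjusted p = 0.061), short of the threshold. Without unprimed D2.OR nodule 2, the lower of the pair, the difference was -1.39 (adjusted p = 0.00071), the lines differed by -0.67 (adjusted p = 0.0031) and primed from unprimed D2.OR nodules by -1.29 (adjusted p = 0.0044), the lone array being assumed to vary like the other groups. Without unprimed D2.OR nodule 3 instead, these differences were -0.29 (adjusted p = 0.67), -0.13 (adjusted p = 0.73) and -0.19 (adjusted p = 0.97); without primed D2.OR nodule 2 the first was -0.84 (adjusted p = 0.044).

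Over the 6 groups, neighbours in the order of a member's group means never differed past the threshold: 0 of 50 pairs had an adjusted p under 0.05 by limma. These pairs were set by sorting the observed means and so hold the smallest gaps. The count thus describes the order of levels and says nothing about groups further apart. The highest and lowest groups were 2.16 apart for Tgfb3, 1.36 for Tgfb1, 1.17 for Tgfbr3, 1.00 for Tgfbr2, 0.91 for Grem1, 0.88 for Bmpr2, 0.87 for Tgfb2, 0.50 for Tgfbr1, 0.31 for Bmp2 and 0.29 for Bmp4. Across all pairs of groups, the Tgfbr3 level of unprimed D2.OR passed the threshold against 4 of the other 5 groups, all but primed D2.A1 epithelial, and no other member passed in any pair. Of 22180 genes, 163 were higher and 547 lower in unprimed D2.A1 spindle than in unprimed D2.OR nodules. These counts were 159 and 416 for unprimed D2.A1 epithelial, 137 and 437 for primed D2.A1 spindle and 203 and 271 for primed D2.A1 epithelial nodules. For primed D2.OR they were 16 and 45. Between D2.A1 groups at most 4 genes were called in 1 direction. The median difference of the 10 members between the lines was -0.31, beside 0.02 over all genes, and between primed and unprimed D2.OR nodules it was 0.12, beside 0.01. Most members lay above the median gene in level, Tgfb1 and Tgfbr2 above 96.7% and 96.1% of genes. These medians are thus not of genes of like level.

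Other genes of the pathway differed between the lines, for the most part outside the receptors and Smads. Lists of further ligands, receptors, latency and activation genes, secreted antagonists, Smads and their regulators, response genes and dormancy genes held 155 genes, of which 144 were measured. Between D2.A1 and D2.OR 8 of these were higher and 8 lower, 11.1% called beside 5.19% of all genes (1.52% higher and 3.67% lower). These lists were drawn up with earlier results of these data known, so the shares describe the lists and are no test of the pathway. Of the 12 measured further receptors, only Eng (endoglin), a coreceptor related to Tgfbr3 and abundant on endothelium, was called. It was 4.68 and 5.03 in unprimed D2.OR, 4.16, 4.42 and 4.55 in primed D2.OR and 2.71 to 4.21 in D2.A1 nodules, the lines overlapping only by primed D2.OR nodule 1 and primed D2.A1 epithelial nodule 2. D2.A1 was lower by 1.07 (difference -1.07, SE 0.16, adjusted p = 0.0019), a 2.10-fold difference that was kept without each of the 15 arrays. Averaged over all groups, Eng, Tgfbr3 and Tgfbr2 were thus lower in D2.A1, as were 5 of the 15 endothelial markers, with none higher. Among primed nodules alone Tgfbr3 differed by 0.09 (adjusted p = 0.88 by limma). The Tgfbr2 call was kept in only 4 of the 15 fits with 1 array left out. The part of endothelial cells in these differences was not tested.

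Genes that hold or free TGF-beta outside the cell differed in both directions. Thbs1 (thrombospondin 1), which can activate latent TGF-beta, was 4.74 to 6.24 in D2.A1 nodules, 2.29 and 2.34 in unprimed D2.OR and 3.30 to 3.65 in primed D2.OR nodules, so the lines did not overlap. D2.A1 was higher by 2.54 (SE 0.20, adjusted p = 2.6e-05), a 5.82-fold difference, and it was higher among unprimed nodules by 3.34 and among primed ones by 1.74 (adjusted p = 8.6e-05 and 0.015). Ltbp4, a latent TGF-beta binding protein, was 2.66 to 3.25 in D2.A1 and 3.60 to 4.08 in D2.OR nodules. D2.A1 was lower by 0.72 (difference -0.72, SE 0.10, adjusted p = 0.0017), a call kept without each array but not after quantile normalization (adjusted p = 0.053). The other 16 of 18 measured latency and activation genes did not pass.

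Dcn (decorin), a matrix proteoglycan that binds TGF-beta, was 1.81 to 3.38 in D2.A1 and 4.85 to 6.20 in D2.OR nodules, again without overlap. D2.A1 was lower by 3.04 (difference -3.04, SE 0.21, adjusted p = 9.2e-06), an 8.22-fold difference. Unlike Tgfb3, Dcn was at 6.20 in primed D2.OR nodule 2. It is also a fibroblast marker, and of the 12 fibroblast markers 3 were lower and 1 higher in D2.A1. Of the 19 measured antagonists, Htra1, a secreted protease, was the other one lower (difference -0.80, SE 0.21, adjusted p = 0.045), a call kept in 1 of the 15 fits with 1 array left out (adjusted p up to 0.16). Among the 25 measured further ligands, Inhba, the activin A subunit, was higher in D2.A1 (0.75, SE 0.17, adjusted p = 0.026) and Gdf11 lower (-0.35, SE 0.09, adjusted p = 0.049); the calls were kept in 10 and 3 of the 15 fits with 1 array left out (adjusted p up to 0.068 and 0.20).

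None of the 19 measured Smads and Smad regulators was called in any of the 8 comparisons. Of 24 measured TGF-beta response genes, 3 were higher in D2.A1 and 1 lower. Snai1, a repressor of epithelial genes, was 3.75 to 5.03 in D2.A1, 2.04 and 2.47 in unprimed D2.OR and 3.12 to 3.95 in primed D2.OR nodules (difference 1.45, SE 0.16, adjusted p = 0.00032). Ccn2, a matricellular growth factor, was higher by 0.92 (SE 0.12, adjusted p = 0.0012) and Fn1 (fibronectin) by 1.68 (SE 0.38, adjusted p = 0.024), whereas Snai2 was lower (difference -0.90, SE 0.21, adjusted p = 0.027). The Snai1 and Ccn2 calls were kept without each of the 15 arrays, those of Fn1 and Snai2 in 12 and 9 (adjusted p up to 0.10 and 0.098). Of 16 BMP response genes only Id3, an inhibitor of helix-loop-helix factors that BMP induces, was called, lower in D2.A1 (difference -0.80, SE 0.18, adjusted p = 0.024). It was 2.09 to 3.44 in D2.A1 and 3.40 to 3.83 in D2.OR nodules, and the call was kept in 11 of 15 fits with 1 array left out (adjusted p up to 0.075).

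**Figure D4:**
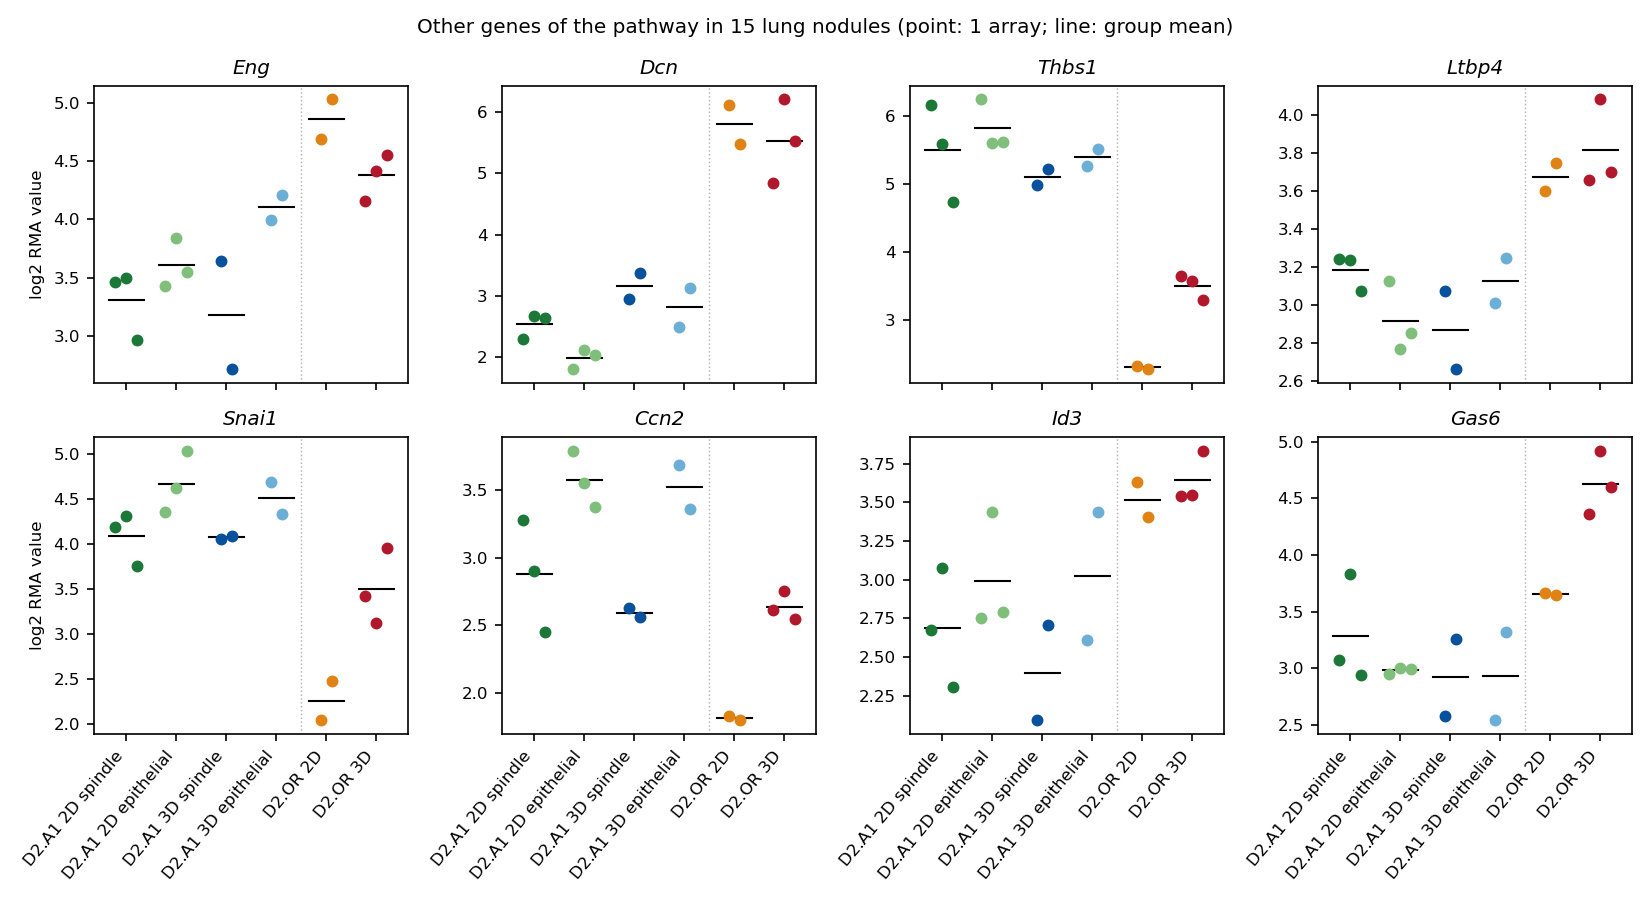
Log2 RMA value (vertical axis, its range set for each gene) of 8 other genes of the pathway in each nodule, by group, with the dotted line between D2.A1 and D2.OR; points are single arrays and bars group means. Thbs1, Dcn and Ltbp4 do not overlap between the lines, with Thbs1 at 4.74 or more in D2.A1 and 3.65 or less in D2.OR, and Dcn at 3.38 or less and 4.85 or more.

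Among 23 measured genes tied to dormancy, 4 were higher in D2.A1 and 1 lower. Besides Thbs1, these were the cell cycle inhibitors Cdkn2a (1.44, SE 0.21, adjusted p = 0.0016) and Cdkn1a (0.54, SE 0.13, adjusted p = 0.029, kept in 9 of 15 fits with 1 array left out, with an adjusted p up to 0.094), and Mertk (0.36, adjusted p = 0.026), the last of which is named for completeness after its value was seen. Gas6, a ligand of the Mertk receptor family, was lower (difference -1.11, SE 0.18, adjusted p = 0.0035): it was 2.54 to 3.83 in D2.A1, 3.64 and 3.66 in unprimed and 4.37 to 4.92 in primed D2.OR nodules. Cdkn2a was 3.91 and 2.76 in unprimed D2.OR nodules and 4.84 to 5.81 in primed ones, close to the 5.09 to 6.08 of D2.A1. Its difference with priming in D2.OR was 2.04 (SE 0.34, adjusted p = 0.036), and that of Acta2, smooth muscle actin and a TGF-beta response gene, was 1.82 (SE 0.33, adjusted p = 0.049); these were the 2 called of 144 in that comparison, kept in 4 and 1 of 15 fits with 1 array left out.

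Thbs1, Dcn and Ltbp4 were called between the lines within the unprimed and within the primed nodules. Unprimed D2.A1 was higher than unprimed D2.OR in Fn1 (2.68), Cdkn2a (2.29), Snai1 (2.12) and Ccn2 (1.41), and lower in Dcn (-3.54), Eng (-1.40), Lifr (-1.09), Ltbp4 (-0.62) and the BMP antagonist Chrdl1 (-0.55). With Thbs1 these were the 10 of 144 called. The calls of Thbs1, Dcn, Eng, Snai1, Ccn2 and Cdkn2a were kept without each of the 15 arrays, that of Fn1 without all but unprimed D2.OR nodule 3 (adjusted p = 0.16), and those of Lifr, Ltbp4 and Chrdl1 in 5, 6 and 8 fits. Primed D2.A1 was lower than primed D2.OR in Dcn (-2.54), Gas6 (-1.71), Acta2 (-1.48) and Ltbp4 (-0.81) and higher in Thbs1. Of these the Dcn and Gas6 calls were kept without each array, and those of Thbs1, Ltbp4 and Acta2 in 9, 8 and 5 of 15 fits. No other pathway gene was called with priming in D2.A1, between morphologies or for the difference of the priming effect (0 of 144 by limma, with 17, 18 and 24 at an unadjusted p under 0.05). Among the members Tgfbr3 was called for that difference, as given above. Without unprimed D2.OR nodule 2 or 3 or primed D2.OR nodule 2, the count of 16 between the lines was 14, 12 and 21, and the count of 2 with priming in D2.OR was 4, 5 and 21, these arrays having been singled out after their marker levels were seen.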

How the data were processed

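RNA of 15 lung tumor nodules was hybridised to Affymetrix Mouse Gene 2.0 ST arrays, 1 array per nodule. The deposited table holds log2 values that the authors made by Robust Multi-array Average (RMA); the submitters' processing notes name Affymetrix Expression Console and Transcriptome Analysis Console, without versions. The log base follows from RMA. Because RMA gives every array the same overall distribution of probe signals, it removes shifts common to most genes, and it compresses differences between weak signals. Of 41345 transcript clusters, 23521 name 1 gene in the platform annotation, 1820 several and 16004 none; the cluster with the highest mean was kept for each of 22180 genes, with no filter on weak signals. No array pair was identical, and array correlations ran from 0.855 to 0.969. Array number, not depth, limits the precision.

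Groups came from the sample titles. The 6 group means were fitted by limma 3.58.1, run under R 4.3.3 (9 residual and 3.20 prior degrees of freedom), with Benjamini-Hochberg adjustment over all 22180 genes for each comparison and a threshold of 0.05. The line means weight groups equally. Scripts were tested on simulated data. The members, gene lists and comparisons were chosen with earlier results of these data known. The text names all members, the 3 genes with the largest called difference in each direction in each pathway list and comparison, and the 3 genes with the highest Pearson correlation to each of the 4 members with the widest range of group means. The listed pathway genes that were not measured were not analysed here. Alternatives were cyclic loess and quantile normalization, the genes above the median gene, all clusters, the mean of a gene's clusters, a trend and robust variance prior, array weights, a replicate block, the groups compared alone, an unmoderated one-way test, and each array left out.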

Additional observations from a re-analysis of the deposited data

Results flagged for a closer look

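The effect of priming on Tgfbr3 differed between the lines by 1.20 on the log2 scale (D2.A1 effect 0.33 minus D2.OR effect -0.87, SE 0.19, adjusted p = 0.045 by limma), which is what brought it here. Groups held 2 or 3 nodules, too few to test single nodules as outliers.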

How the results depend on the processing

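No difference that was called for a member changed sign. Between the lines the count of 2 called members was 1 after quantile normalization, with all transcript clusters, with the trend and robust prior, with the replicate block and in the one-way test. For spindle D2.A1 against D2.OR the 2 were 1 after quantile normalization, with all clusters, the trend and robust prior, the replicate block and only the groups compared, and 0 in the one-way test. Between unprimed nodules the 1 was 3 after cyclic loess, 2 after quantile normalization, above the median gene, with the trend and robust prior and with only the groups compared, and 0 in the one-way test. Between primed nodules the 0 was 1 after cyclic loess or quantile normalization and 2 with array weights. With priming in D2.OR the 1 was 0 after cyclic loess, quantile normalization, with all clusters, the trend and robust prior, the replicate block, only the groups compared and the one-way test. For the difference of the priming effect the 1 was 0 after quantile normalization, with all clusters, the trend and robust prior, the replicate block and the one-way test. With 1 array left out the counts ran from 1 to 4 between the lines, 1 to 4 for spindle nodules, 1 to 2 unprimed, 0 to 1 primed, 0 to 3 with priming in D2.OR, 0 to 0 with priming in D2.A1 and between morphologies, 0 to 2 for the difference, and 0 to 1 for neighbouring groups. The causes were not tested.

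Counts over all genes moved more: with 1 array left out they ran from 793 to 1747 around 1152 between the lines, from 511 to 1672 around 933 for spindle nodules, from 670 to 1315 around 931 unprimed, from 38 to 526 around 99 primed, from 15 to 526 around 61 with priming in D2.OR and from 3 to 448 around 21 for the difference, and under the other settings from 615 to 1656, 46 to 1503, 48 to 1377, 0 to 952, 0 to 203 and 2 to 68. Quantile normalization gave 598 higher and 563 lower genes for spindle nodules beside 242 and 691, and 518 and 682 unprimed beside 221 and 710, 139 and 92 primed beside 43 and 56, 43 and 38 with priming in D2.OR beside 16 and 45 (cyclic loess: 49 and 73), and 18 and 25 for the difference beside 13 and 8, so quantile normalization turned the balance in the last 3. Leaving out primed D2.OR nodule 2 turned it too: with priming in D2.OR it was 383 higher and 86 lower without primed D2.OR nodule 2, 27 and 499 without unprimed D2.OR nodule 3 and 30 and 459 without unprimed D2.OR nodule 2, and for the difference 49 and 219, 422 and 26, and 348 and 24. Whether sample numbers pair nodules could not be told from the arrays. Over 31 pairs of arrays with the same number the correlation of deviations from the group means ran from -0.45 to 0.23 (median -0.01). Over 62 pairs with different numbers it ran from -0.29 to 0.40 (median 0.01). Most of these pairs join nodules of different lines or priming, which cannot share a mouse. In groups of 2 nodules the deviations also mirror each other, so the correlations cannot decide the question. With the replicate block Tgfbr2 differed between the lines by -0.76 (adjusted p = 0.088) and Tgfbr3 with priming in D2.OR by -0.85 (adjusted p = 0.13).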
